A study of Mus musculus with 5 samples.

Results

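Mouse embryonic stem (ES) cells were compared with mouse embryonic fibroblasts (MEF) across gene groups other than the pluripotency network and the extracellular matrix. The comparison used 4 of the 5 sequenced plates, 3 plates of ES R1 cells and 1 plate of MEF. ES R1 is an established mouse ES cell line, and its plates are labelled as spheres derived from ES cells. The remaining plate held Neuro2A, a mouse neuroblastoma line. No plate carried a treatment, genotype contrast or time course. MEF and Neuro2A were cultured in DMEM with serum and 2-mercaptoethanol, while ES R1 followed a separate published protocol, so cell type and culture medium cannot be told apart. Cells were sorted singly into plates of 96 wells. Each well received its own 5′ barcode during reverse transcription, the wells of a plate were pooled and amplified by PCR, and reads were counted per gene and barcode. Of the 431 wells with at least 1000 gene reads in the series, 345 belonged to the plates compared here: 93, 66 and 94 in ES replicates 1, 2 and 3, and 92 in MEF.

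ES cells taken from the early embryo divide quickly, with short gap phases, and are known for a high demand for DNA synthesis, for open chromatin and for high levels of the enzymes that set new DNA methylation. Fibroblasts are mesenchymal cells that spread on a surface, pull on it through actin bundles anchored at focal adhesions, and secrete large amounts of protein through the endoplasmic reticulum. Dividing cells rebuild the replication machinery once per cycle: origin recognition proteins mark the start sites, loaders place the ring-shaped MCM helicase on them, and polymerases, the sliding clamp and ligase copy the DNA at the fork.

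The ES plates gave 11432543, 262517 and 2134248 kept gene reads, the MEF plate 2930884 and the Neuro2A plate 3155092. ES replicate 2 was the thinnest plate, with 82.4% of its reads on repeats and 25.9% of its kept gene reads in 1 well. A count of 3 reads, used as the floor for a value of 0, stood for 0.242, 8.71 and 1.37 CPM (reads scaled to a common library size, with TMM factors between plates) in the ES plates and 1.52 CPM in MEF. All plates used the same 96 barcodes. Genes typical of MEF were read in ES replicate 3 at a median of 10.8% of their MEF reads, over 199 genes, and followed MEF at the same barcode (Spearman correlation 0.95 over 91 wells, a description). The same measure was 0% in ES replicates 1 and 2, but over only 31 and 37 genes. For these plates the rule that picks the genes also compared MEF with ES replicate 3. Genes typical of Neuro2A were read in MEF at a median of 9.45% of their Neuro2A reads, over 134 genes. Here the correlation at the same barcode was lower, 0.53 over 84 wells. These genes were picked against the ES plates and not against MEF, so genes that MEF itself expresses can be among them. Counts of genes lower in ES are therefore also given for ES replicates 1 and 2 alone. The 8 ES markers summed to 7810, 4441 and 8713 CPM in the ES plates and to 2.02 CPM in MEF. The 10 fibroblast markers summed to 0, 95.8 and 1356 CPM in the ES plates and to 16287 CPM in MEF. Both labels therefore matched their markers. The 9 neuroblastoma markers found in the files summed to 252.5 CPM in MEF and 1494 CPM in Neuro2A. Of the 6 neural progenitor markers 2 were found, Nes and Zic1. They summed to 919 CPM in MEF, 834 CPM of it from Nes, and to 0, 46.4 and 151 CPM in ES. The 4 primitive endoderm markers found summed to 616 CPM in MEF, 539 CPM of it from Dab2. In ES they summed to 51.5, 81.3 and 96.5 CPM. The 5 macrophage markers found summed to 70.4, 78.4 and 153 CPM in ES and to 0 CPM in MEF. The part of these markers in the results was not tested.

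edgeR's quasi-likelihood test on the plate sums called 0 of 12271 genes (0% of those tested) at a Benjamini-Hochberg adjusted p of 0.05. The smallest adjusted p was 0.435, and 1028 genes had an unadjusted p under 0.05, 516 of them higher in ES (4.21%) and 512 lower (4.17%). With 1 MEF plate, the spread was estimated from the 3 ES plates alone. An exact permutation test of 3 plates against 1 cannot go below p = 0.25. DESeq2, which gave 8464 genes an adjusted p, called 395 higher in ES (4.67% of these) and 86 lower (1.02%), while limma-voom called 1 higher and 491 lower. The values below are therefore described by plate. Every ES plate lay above MEF for 2854 genes (23.3%) and below it for 4879 (39.8%). The low-count filter keeps a gene that passes in 1 plate. A gene with 0 reads in 1 cell type was therefore tested only where other plates held it. With library sizes alone in place of TMM factors the numbers were 3879 above and 3479 below. Genes with every ES plate at least 4-fold above MEF numbered 904 (7.37%), and those at least 4-fold below 1274 (10.4%). With ES replicates 1 and 2 alone, 5619 genes lay below MEF (45.8%) and 1728 at least 4-fold below (14.1%). The median log2 ratio of ES to MEF over all tested genes was -0.08, and with library sizes alone it was 0.69. For the single ES plates it was -0.72, -0.24 and -0.28, and list medians are to be read against the value of the same plate or mean. The 31 gene lists held 671 tested entries, of which edgeR called 0 and DESeq2 called 66 genes higher and 19 lower in ES.

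**Figure D1:**
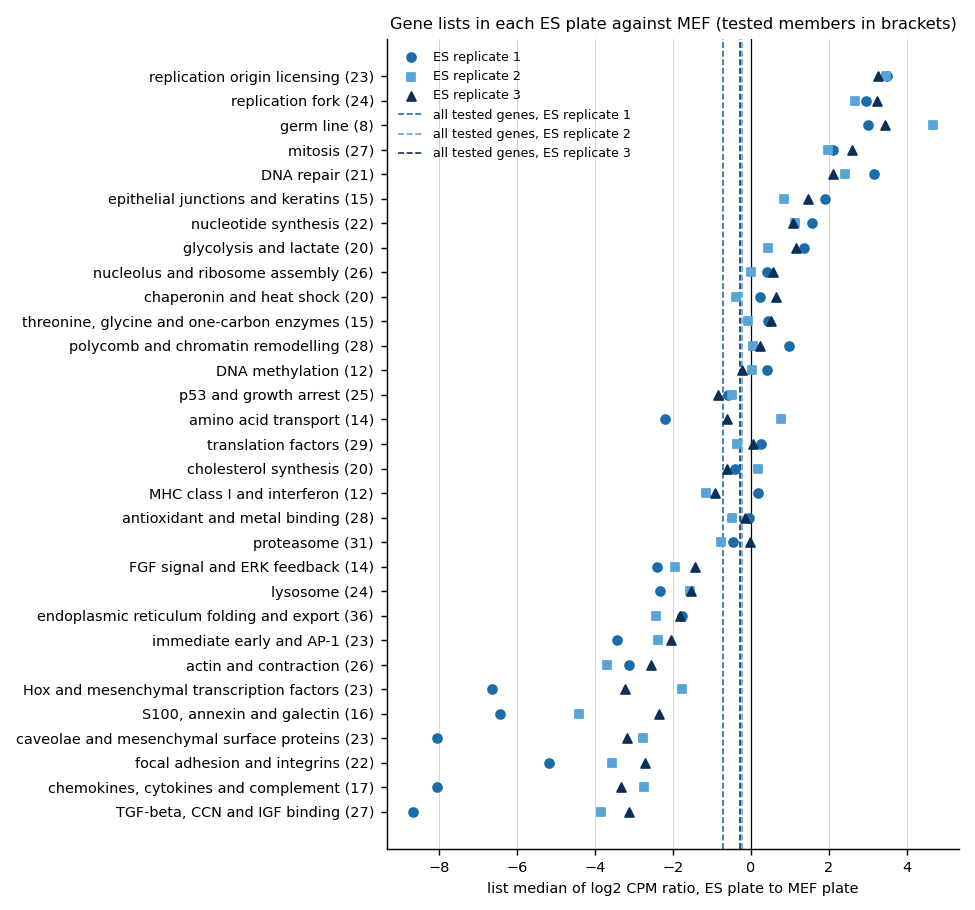
Median log2 CPM ratio of each ES plate to the MEF plate (horizontal axis) for the 31 gene lists (vertical axis, tested members in brackets), with 1 symbol per ES plate and, in the same colour, a dashed line at that plate's median over all tested genes, -0.72, -0.24 and -0.28. Replication origin licensing lies between 3.26 and 3.49 in the ES plates, and TGF-beta, CCN and IGF binding between -8.67 and -3.14.

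Replication origin licensing stood far towards ES. Of its 23 tested members, 20 had every ES plate above MEF (background 23.3%), 12 of them at least 4-fold (background 7.37%), and 1 had every ES plate below. The list's median log2 ratio was 3.94, beside -0.08 over all tested genes. Mcm2, a subunit of the MCM helicase, was at 219, 226 and 332 CPM in ES replicates 1, 2 and 3 and at 10.6 CPM in MEF. Mcm3, another subunit of that ring, was at 230, 151 and 309 CPM against 4.55. All ES plates were high and MEF lay apart from them for both subunits, by 24.4-fold and 50.6-fold on the ES mean. Cdt1, which loads the helicase and is destroyed once replication starts, was at 195, 235 and 219 CPM in ES and 3.54 CPM in MEF (61.2-fold). Cdc6, the other loader, was at 86.9, 75.5 and 71.3 CPM in ES and had 0 reads in MEF, which makes it at least 51.4-fold higher in ES. All 3 genes grouped as loader or inhibitor, with the Cdt1 inhibitor geminin (Gmnn) at 90.5, 75.5 and 169 CPM against 8.08, were at least 4-fold higher in every ES plate. The origin recognition subunits stood closer to MEF. Orc2l was at 261, 241 and 137 CPM against 24.2, but Orc1l, the largest subunit, was at 86.7, 98.7 and 95.6 CPM against 69.7. Orc4l was the member below MEF, at 49.3, 20.3 and 48.5 CPM against 128. The median log2 ratio was 2.26 for the 6 origin recognition genes and 5.68 for the 3 loader or inhibitor genes. It was 4.34 for the 14 genes grouped as helicase, Cdc7 and Dbf4 among them. Dbf4, the regulatory partner of the kinase that fires origins, was at 556, 206 and 176.5 CPM in ES and 60.6 CPM in MEF. DESeq2's adjusted p was 3.93e-05 for Mcm2, 1.56e-05 for Mcm3, 6.42e-06 for Cdt1 and 0.143 for Dbf4, and edgeR's lay between 0.472 and 0.589 for these genes. Reads shared from Neuro2A, at the share given above, would make up 36.5% of MEF's 1039 reads on this list. With that share subtracted from MEF, and MEF's share from ES replicate 3, 21 of 23 members had every ES plate above MEF (background 30.05%).

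The bases just before the start sites of licensing genes are shown because E2F factors, which drive the G1 to S transition, bind sites of known letters there. TTTCCCGC, TTTCGCGC, TTTGGCGC and TTTGCCGC were searched on both strands in windows of 300 bases (250 before and 50 after the start) from RefSeq, build GRCm38.p6. Matches may overlap. A match was present for 9 of the 18 licensing members with a window (50%), for 5 of 21 replication fork members (23.8%) and for 2 of 21 mitosis members (9.52%). Among the other lists the highest shares were 28.6% for DNA repair (4 of 14), 22.2% for DNA methylation and 20% for polycomb and chromatin remodelling. Several lists had 0%. Over all 32851 windows it was present in 2.26%, and over the tested genes with a window in 4.98%. A match describes the letters only. Cdc6, Mcm5 and Gins3 were chosen, after their values were seen, as members with 1 window, a match before the start and every ES plate at least 4-fold above MEF. Mcm5 was at 53.2, 165 and 161 CPM against 1.52, and Gins3, a subunit of the GINS complex that activates the helicase, at 52.2, 17.4 and 16.5 CPM against 0 reads. The last 200 bases before each start are printed 5′ to 3′ with the matches in capitals, from chr11:98907951-98908150 (forward strand), chr8:75109309-75109508 (forward strand) and chr8:95633359-95633558 (forward strand). Mcm5 holds 2 overlapping matches and the others 1 each.
Cdc6: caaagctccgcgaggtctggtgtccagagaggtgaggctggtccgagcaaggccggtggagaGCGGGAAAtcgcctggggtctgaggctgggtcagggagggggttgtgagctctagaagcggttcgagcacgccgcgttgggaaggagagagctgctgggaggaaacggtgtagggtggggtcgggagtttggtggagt
Mcm5: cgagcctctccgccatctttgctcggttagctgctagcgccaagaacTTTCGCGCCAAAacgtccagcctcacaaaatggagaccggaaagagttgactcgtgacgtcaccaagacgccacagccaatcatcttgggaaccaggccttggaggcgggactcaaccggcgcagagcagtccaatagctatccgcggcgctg
Gins3: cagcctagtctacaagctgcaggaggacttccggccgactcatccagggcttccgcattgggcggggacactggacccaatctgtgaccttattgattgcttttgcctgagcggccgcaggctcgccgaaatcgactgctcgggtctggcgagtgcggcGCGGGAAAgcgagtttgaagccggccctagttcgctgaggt

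The replication fork followed the same direction. Of 24 tested members, 22 had every ES plate above MEF (background 23.3%), with a median log2 ratio of 3.57. In every ES plate 13 were at least 4-fold above (background 7.37%). Pcna, the sliding clamp, was at 625, 90.0 and 123 CPM in ES and 14.6 CPM in MEF. Its ES plates varied widely, but each lay above MEF. Top2a, the topoisomerase that untangles replicated DNA, was much steadier, at 226, 221 and 284 CPM against 23.2. Lig1, the ligase that joins lagging strand fragments, was at 129, 92.9 and 359 CPM against 14.1, and Fen1, the nuclease that trims them, at 279, 69.7 and 92.8 CPM against 3.03. The clamp loader subunit Rfc5 was at 206, 110 and 113 CPM against 10.6. These 5 genes had ES to MEF ratios between 10.5-fold for Top2a and 48.5-fold for Fen1. Prim2, a primase subunit, was the member with every ES plate below MEF, at 0, 31.9 and 12.8 CPM against 41.9. By role, the median log2 ratio was 3.76 for the clamp and its loader, 3.16 for polymerases and primase and 3.13 for the other fork proteins.

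Mitotic genes stood less far from MEF than the replication lists, with a median log2 ratio of 2.37; the difference between lists was not tested. Of 27 members, 20 had every ES plate above MEF (background 23.3%) and 10 were at least 4-fold above (background 7.37%). Birc5, the survivin subunit of the chromosomal passenger complex, was at 473, 244 and 329 CPM in ES and 53.5 CPM in MEF. Ccnb1, the cyclin that drives entry into mitosis, was at 239, 209 and 158 CPM against 13.1. Kif11, the motor that pushes spindle poles apart, was at 193, 145 and 106.5 CPM against 2.53. The 3 ES plates lay close together for Ccnb1 and Kif11, and MEF was 15.4-fold and 58.7-fold lower. Bub1, a checkpoint kinase, was the exception, at 98.0, 87.1 and 46.2 CPM against 107. DNA repair genes gave a median of 2.24. Of 21 members, 16 lay above MEF in every ES plate and 10 at least 4-fold, beside the same 23.3% and 7.37%. Msh6, which recognises mismatches, was at 392, 165 and 402 CPM against 8.08. Parp1, which marks DNA breaks, was at 417, 270 and 268 CPM against 13.1. Brca2, which loads the recombinase at breaks, was at 230, 180 and 272 CPM and had 0 reads in MEF, at least 150-fold higher in ES. With every well given equal weight, 10 of 21 repair members had every ES plate above MEF (background 21.2%). With the share of other plates' reads subtracted it was 17 (background 30.05%).

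Nucleotide synthesis supplies the precursors for replication. Its 22 members had 13 above MEF and 4 below in every ES plate (background 23.3% and 39.8%), with a median log2 ratio of 1.19. Ppat, the first enzyme of purine synthesis, was at 429, 357 and 421 CPM in ES and 56.1 CPM in MEF. Gart, a purine enzyme with several activities, was at 64.1, 116 and 158 CPM and had 0 reads in MEF. Dut, which removes dUTP, was at 296, 116 and 220 CPM against 12.6, and Tyms, which makes dTMP, at 126, 29.0 and 69.0 CPM against 9.09. Threonine, glycine and one-carbon enzymes were split, with 6 of 15 members above and 5 below, beside 23.3% and 39.8% of all tested genes. Tdh, which breaks threonine down to glycine and acetyl-CoA and is known for its role in mouse ES cells, was at 571, 374.5 and 326 CPM in ES and had 0 reads in MEF and in Neuro2A. It was at least 280-fold higher in ES than in MEF. Gldc, of the glycine cleavage system, was at 142, 273 and 81.4 CPM and also had 0 reads in both other cell types. When every well was thinned to 1000 gene reads, Tdh had a read in 24.7%, 34.8% and 24.5% of the ES wells and in 0 of 92 MEF wells. The MEF count was fixed by its 0 reads before thinning. It allows up to 3.93% of wells with a read at this depth (exact binomial, 95%, counting error only, wells taken as independent). It sets no limit on the cells that express the gene. The serine and folate enzymes of the same list had a median of -0.15, beside -0.08 over all genes.

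Among DNA methylation genes, those grouped as writers and the other members had different medians. The 5 genes grouped as writers had a median log2 ratio of 3.90 and the 7 oxidation or reader genes -0.42. The writer group includes the cofactors Dnmt3l and Uhrf1. Of its methyltransferases Dnmt3b, Dnmt3a and Dnmt1, only Dnmt3b lay above MEF in every ES plate. The list as a whole had 4 members above and 4 below MEF in every ES plate, beside 23.3% and 39.8% of all tested genes. Dnmt3l, the catalytically inactive partner of the new-methylation enzymes, was at 1091, 668 and 1016 CPM in ES and had 0 reads in MEF, at least 610-fold higher in ES. Dnmt3b was at 801, 586 and 333 CPM against 38.4, whereas Dnmt3a, its close relative, was at 25.0, 180 and 58.1 CPM against 308. Uhrf1, which brings the maintenance enzyme to replicated DNA, was at 338, 122 and 266 CPM against 3.03. The maintenance enzyme Dnmt1 itself was at 66.2, 134 and 229 CPM against 111, so its ES plates lay on both sides of MEF. Of the enzymes that oxidise methylcytosine, Tet1 (Cxxc6 in the files) was at 150, 87.1 and 239 CPM against 4.04, while Tet2 (E130014J05Rik) was at 144, 63.9 and 61.3 CPM against 73.7.

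Polycomb and chromatin remodelling genes were mixed, with a median of 0.30. In every ES plate 13 of 28 lay above and 9 below MEF, beside 23.3% and 39.8% of all tested genes. The 10 polycomb genes had 5 above and 4 below. Suz12, a subunit of the repressive complex PRC2, was at 555, 401 and 284 CPM against 60.1, and the accessory factor Mtf2 at 651, 340 and 258 CPM against 48.5. Ezh2, the catalytic subunit, lay just below MEF, at 105, 105 and 101 CPM against 109. The DNA helicase Hells, needed for methylation of repeats, was at 491, 255 and 287 CPM against 16.7. Phc1, a PRC1 subunit, was at 359, 238 and 418 CPM against 14.1. Cbx5, the heterochromatin protein HP1 alpha, was lower in every ES plate, at 210, 244 and 395 CPM against 604.

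**Figure D2:**
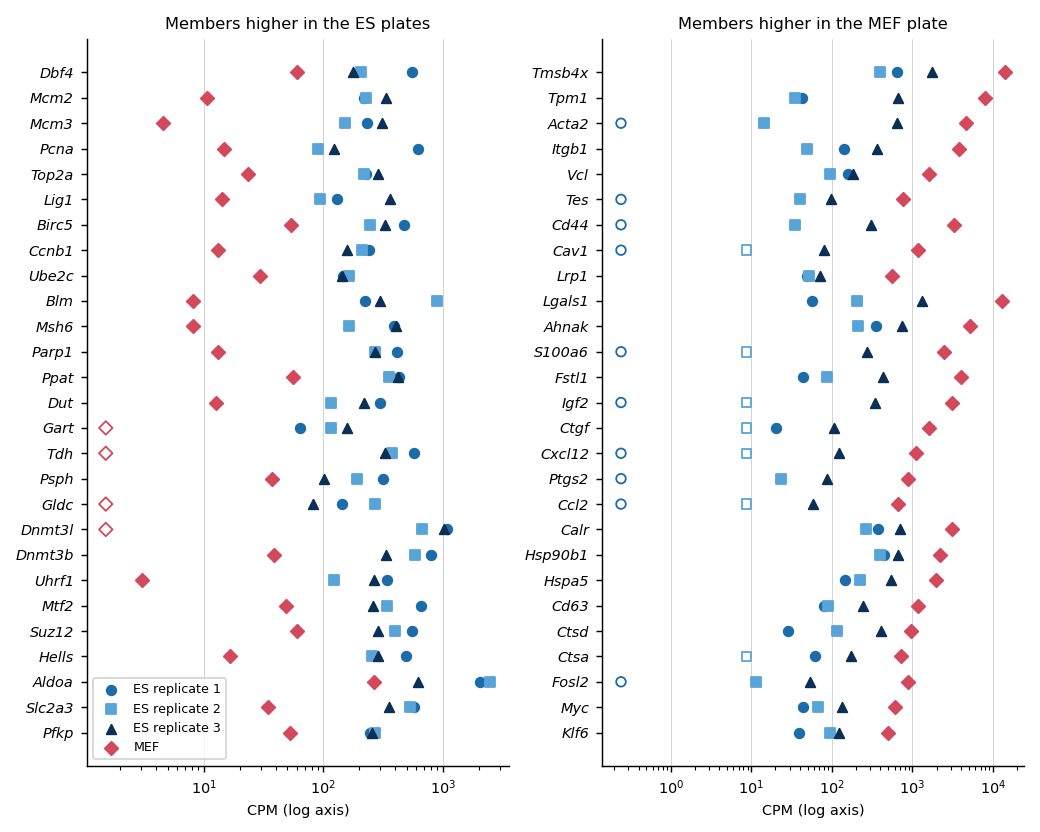
CPM (horizontal log axes) of named members in the 3 ES plates and the MEF plate, 1 point per plate, with an open symbol at the floor of 3 reads where a plate had fewer. On the left every ES plate lies above MEF, as for Mcm3 at 230, 151 and 309 CPM against 4.55, and on the right MEF lies above every ES plate, with ES replicate 3 nearer to MEF than replicates 1 and 2 for genes such as Acta2.

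Glycolysis genes had 9 of 20 members above MEF and 0 below in every ES plate, beside 23.3% and 39.8% of all tested genes. The list median was 1.12. Aldoa, the muscle-type aldolase, was at 2047, 2476 and 619 CPM in ES and 264 CPM in MEF. The glucose transporter Slc2a3 was at 576, 528 and 352 CPM against 34.3, and Pfkp, a phosphofructokinase, at 243, 273 and 253 CPM against 53.03. ES plates agreed closely on Pfkp and were 4.83-fold above MEF. Hk2 and Pkm2 were closer, at 288, 250 and 451 CPM against 183 and at 1001, 441 and 1326 CPM against 609. Gapdh was at 82.8, 20.3 and 50.7 CPM against 3.03, but it has many near-identical pseudogenes and its counts are uncertain. Without ES replicate 2, 16 of 20 members had both remaining ES plates above MEF, beside 36.5% of all genes tested in that setting.

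The machinery of protein synthesis and quality control did not stand far from the median of all genes. Medians were 0.42 for nucleolus and ribosome assembly (10 above and 5 below of 26), 0.36 for chaperonin and heat shock (7 and 4 of 20), 0.10 for translation factors (6 and 5 of 29) and -0.31 for the proteasome (2 and 13 of 31). Over all tested genes the shares were 23.3% above and 39.8% below. Within them, Hsp90aa1, the inducible cytosolic HSP90, was at 3317, 1213 and 1270 CPM in ES and 290 CPM in MEF. Npm1, a nucleolar chaperone, was at 2771, 691 and 794 CPM against 284, and Dkc1, of the snoRNP and telomerase complexes, at 671, 380 and 386 CPM against 56.1. Hspe1, the mitochondrial co-chaperonin, was the other way, at 349, 354 and 552 CPM against 809. Hsp90aa1 and Npm1 also have pseudogenes that could share their reads. The counts for these lists moved with scaling: with library sizes alone, 22 of 26 nucleolar genes and 20 of 29 translation factors had every ES plate above MEF, and 3 of 31 proteasome genes below. Over all tested genes that setting gave 31.6% above and 28.4% below.

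Epithelial junction genes had a median of 1.67. In every ES plate 6 of 15 members lay above MEF and 4 below, beside 23.3% and 39.8% of all tested genes. Cdh1, the E-cadherin that holds ES colonies together, was at 105, 142 and 92.4 CPM in ES and had 0 reads in MEF, at least 74.7-fold higher in ES. Epcam (Tacstd1 in the files) was at 321.5, 322 and 165 CPM and had 2 reads in MEF. Cdh3, P-cadherin, lay far on the other side, with 0 reads in ES replicates 1 and 2, 59.4 CPM in ES replicate 3 and 571 CPM in MEF. The 10.8% share of MEF reads in ES replicate 3 stands beside that value. Of the germ line list only 8 of 16 genes were tested, 3 of them above MEF in every ES plate, and every tested member's MEF reads were at or under the share expected from Neuro2A. FGF signalling had 4 of 14 members above and 7 below MEF in every ES plate, beside the same 23.3% and 39.8%. The ligand Fgf4 was at 222, 134 and 150 CPM in ES with 0 reads in MEF, while Dusp6, which switches ERK off in response to FGF, was at 191, 122 and 293 CPM against 1065. The 10 feedback genes had 3 above, 6 below and a median of -2.55, and the 4 ligands and receptors 1 above, 1 below and a median of 0.23.

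Actin and contraction genes stood on the MEF side. Of the tested members, 25 of 26 had every ES plate below MEF (background 39.8%), 14 of them at least 4-fold (background 10.4%), and 0 had every ES plate above. The median log2 ratio was -3.06. With ES replicates 1 and 2 alone, the counts were again 25 below (background 45.8%) and 14 at least 4-fold below (background 14.1%). Tmsb4x, which binds actin monomers, was at 644, 392 and 1744 CPM in ES and 14142 CPM in MEF. Tpm1, a tropomyosin, was at 42.2, 34.8 and 668 CPM against 7876. Acta2, the smooth muscle actin, had 0 reads in ES replicate 1 and 5 in ES replicate 2, and was at 635 CPM in ES replicate 3 and 4580 CPM in MEF. ES replicate 3 was the highest ES plate for these genes, and the MEF reads it shares would make 54.1% of its 19514 reads on the list. The cross-linker Flna did not rest on that plate, at 69.0, 84.2 and 144 CPM against 1492. DESeq2's adjusted p was 0.00289 for Tmsb4x, 0.0285 for Tpm1, 0.663 for Acta2 and 0.000796 for Flna. Myosin and tropomyosin genes had a median of -4.36, and the 8 genes of actin and its monomer binding -2.03. Actb, the cytoplasmic beta-actin, was at 2681, 589 and 1615 CPM against 3884.

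The CArG box, bound by serum response factor, is a known element of actin cytoskeleton and early response genes, and 2 windows that hold it are shown for that reason. It was present in the windows of 4 of 22 actin members (18.2%), 3 of 17 focal adhesion members (17.6%) and 3 of 18 immediate early members (16.7%), and in 1.63% of all windows and 1.73% of tested genes with a window. Myl9, a myosin light chain of contractile cells, had 0 reads in ES replicates 1 and 2 and was at 85.0 CPM in ES replicate 3 and 1029 CPM in MEF. Srf, the factor itself, was at 23.5, 34.8 and 37.5 CPM against 146.5. Both were chosen after their values were seen. The last 200 bases before each start are from chr2:156775264-156775463 (forward strand) and chr17:46556163-46556362 (reverse strand), with the 10-base matches in capitals, 1 for Myl9 and 2 for Srf.
Myl9: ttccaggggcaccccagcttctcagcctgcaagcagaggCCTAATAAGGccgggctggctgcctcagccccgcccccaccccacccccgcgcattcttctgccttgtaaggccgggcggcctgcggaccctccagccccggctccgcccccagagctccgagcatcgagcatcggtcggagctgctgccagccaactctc
Srf: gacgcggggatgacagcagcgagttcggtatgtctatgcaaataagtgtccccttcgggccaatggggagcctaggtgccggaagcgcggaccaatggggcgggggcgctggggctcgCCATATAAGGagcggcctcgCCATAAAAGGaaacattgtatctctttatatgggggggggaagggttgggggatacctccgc

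Adhesion and surface genes followed. Of 22 focal adhesion and integrin genes, 20 lay below MEF in every ES plate (background 39.8%), with a median of -3.46. Itgb1, the shared beta subunit of matrix-binding integrins, was at 143, 49.3 and 365 CPM in ES and 3766 CPM in MEF. Vcl, vinculin, which couples adhesions to actin, was at 159, 95.8 and 184 CPM against 1608. Itga6, the laminin-binding alpha subunit, was the single member above MEF in every ES plate, at 79.3, 122 and 96.5 CPM against 3.03. Integrin subunits thus lay on both sides, with Itga6 32.7-fold higher and Itgb1 20.3-fold lower in ES. Caveolae and mesenchymal surface proteins had 20 of 23 members below (background 39.8%), with a median of -3.26. Cav1, the coat protein of caveolae, had 0 reads in ES replicate 1 and 1 in ES replicate 2, and was at 80.5 CPM in ES replicate 3 and 1176 CPM in MEF. Cd44, the hyaluronan receptor, was at 0, 34.8 and 302 CPM against 3290. Lrp1, an endocytic receptor, had reads in all ES plates, at 48.9, 52.3 and 72.2 CPM against 555. Mcam was the member above MEF, at 245, 46.4 and 98.3 CPM against 23.2. Of 16 S100, annexin and galectin genes, 13 lay below MEF (background 39.8%), with a median of -3.15. Lgals1, galectin-1, was at 57.4, 203 and 1298 CPM against 13017, and S100a6, a calcium-binding protein of growing fibroblasts, at 0, 5.81 and 274 CPM against 2432. With ES replicates 1 and 2 alone, 20, 20 and 14 genes of these 3 lists lay below MEF (background 45.8%). At least 4-fold below were 17, 14 and 9 (background 14.1%). Shared MEF reads would make 63.3%, 61.1% and 58.7% of the reads of ES replicate 3 on them.

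Signals between cells gave the list median farthest from 0 among the 31 lists. TGF-beta, CCN and IGF binding genes had a median log2 ratio of -4.35. Of 27 members, 25 lay below MEF in every ES plate (background 39.8%), 22 of them at least 4-fold (background 10.4%). Igf2, the insulin-like growth factor, had 0 reads in ES replicates 1 and 2 and was at 348 CPM in ES replicate 3 and 3057 CPM in MEF. Ctgf, a CCN protein made under tension, was at 20.4, 0 and 108 CPM against 1622. The ligands Inhba and Cxcl12 each had 0 reads in ES replicate 1 and 1 read in ES replicate 2, and stood at 1522 and 1112 CPM in MEF. In ES replicate 3 the shared MEF reads would make 77.9% of the reads on this list. With ES replicates 1 and 2 alone, 26 of 27 members lay below MEF (background 45.8%). Fstl1, a secreted follistatin-like protein, was seen in all plates, at 43.7, 87.1 and 434 CPM against 3967. Igfbp2 had ES plates on both sides of MEF, at 140, 128 and 388 CPM against 231. Chemokines, cytokines and complement had 16 of 17 members below MEF (background 39.8%), with a median of -3.49. Ccl2, which attracts monocytes, was at 0, 2.90 and 58.1 CPM against 668, and Ptgs2, the inducible cyclooxygenase, at 0, 23.2 and 86.0 CPM against 886. For 4 of the 17 genes, MEF's reads were at or under the share expected from Neuro2A. With that share subtracted 12 lay below MEF (background 31.1% in that setting).

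Hox and mesenchymal transcription factors had 21 of 23 tested members below MEF and 0 above (background 39.8% and 23.3%), with a median of -3.11. Of the list's 34 genes, 23 were tested. A factor with 0 reads in ES could pass the low-count filter only through MEF or Neuro2A. The filter thus partly fixed the count below MEF. Prrx1, a homeobox factor of limb and body wall mesenchyme, had 0 reads in ES replicates 1 and 2 and was at 94.6 CPM in ES replicate 3 and 1130 CPM in MEF. Prrx2, Twist1 and Foxc2 also had 0 reads in ES replicates 1 and 2, beside 231, 203 and 153 CPM in MEF. For this list the shared MEF reads would make 87.6% of the 665 reads of ES replicate 3. The floor in ES replicate 2, 8.71 CPM, limits what can be said of the weaker Hox genes, of which 1 of 8 was at least 4-fold lower in every ES plate. Immediate early and AP-1 genes had 20 of 23 below and 0 above (background 39.8% and 23.3%), with a median of -2.85. Fosl2, an AP-1 subunit, was at 0, 11.6 and 53.9 CPM against 876. Klf6, an early zinc finger factor, was at 39.3, 95.8 and 124 CPM against 498. Egr1 came nearer, at 40.8, 157 and 325.5 CPM against 543. ES replicates 1 and 2, where the median MEF share was 0%, had list medians of -3.44 and -2.38. In them 20 immediate early genes and 21 Hox and mesenchymal factors lay below MEF (background 45.8%). Of these, 12 and 11 were at least 4-fold below (background 14.1%).

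Genes of the endoplasmic reticulum stood on the MEF side in all ES plates. Of 36 tested genes for translocation, folding and export, 34 lay below MEF in every ES plate (background 39.8%). The median log2 ratio was -1.93, with plate medians of -1.78, -2.43 and -1.82. Calr, the lectin chaperone of the lumen, was at 370, 267 and 693 CPM in ES and 3106 CPM in MEF. Hspa5, the chaperone BiP, was at 146, 226 and 541 CPM against 1936, and Hsp90b1, the HSP90 of this compartment, at 439, 392 and 667 CPM against 2192. The ratios of MEF to ES were 7.005-fold, 6.36-fold and 4.39-fold. Arf4, a small GTPase of the coats that bud from the Golgi, was at 196, 186 and 214 CPM against 1440, with an ES spread of 14.3 CPM (SD, n = 3). Ssr3, of the translocon, was at 362, 209 and 263 CPM against 1457. Sec61g, a small subunit of the channel, was the member above MEF, at 241, 134 and 369 CPM against 66.7. By role the medians were -2.09 for translocation and glycosylation, -2.03 for folding and -1.91 for coats and retrieval. DESeq2's adjusted p was 0.0206 for Calr, 0.0879 for Hspa5 and 0.00368 for Arf4. Subtracting the shared reads left 33 of 36 members below MEF (background 31.3%), and library sizes alone left 29 (background 28.4%). In ES replicates 1 and 2 alone 34 lay below (background 45.8%), 16 of them at least 4-fold (background 14.1%).

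Chaperones of the endoplasmic reticulum are known to share a stress response element (ERSE), CCAAT and CCACG with any 9 bases between, bound by ATF6, and the windows of the 3 chaperones above are shown with it. The element, searched on both strands, was present for 6 of 31 members with a window (19.4%), for 0.119% of all windows and for 0.172% of tested genes with a window. It was found in 0 windows of every other list. The bases before the start are from chr2:34771890-34772089 (forward strand), chr10:86705445-86705694 (reverse strand) and chr8:84846932-84847131 (reverse strand), with matches, unspecified letters included, in capitals. Hsp90b1 holds 1 match on each strand, and Calr holds its match on the other strand.
Hspa5: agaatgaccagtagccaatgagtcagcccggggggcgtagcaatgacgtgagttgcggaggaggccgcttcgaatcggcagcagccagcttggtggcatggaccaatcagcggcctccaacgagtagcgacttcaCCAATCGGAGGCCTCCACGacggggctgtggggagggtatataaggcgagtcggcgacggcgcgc
Hsp90b1: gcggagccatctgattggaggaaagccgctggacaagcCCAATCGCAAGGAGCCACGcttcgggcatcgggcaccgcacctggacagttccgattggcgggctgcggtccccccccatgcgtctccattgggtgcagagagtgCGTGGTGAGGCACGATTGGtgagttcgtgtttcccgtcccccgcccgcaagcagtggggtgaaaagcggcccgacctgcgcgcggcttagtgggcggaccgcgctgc
Calr: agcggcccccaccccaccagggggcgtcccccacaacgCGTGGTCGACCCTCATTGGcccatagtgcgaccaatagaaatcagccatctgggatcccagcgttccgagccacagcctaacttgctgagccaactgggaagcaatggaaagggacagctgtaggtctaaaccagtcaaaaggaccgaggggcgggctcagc

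Lysosomal genes were lower in ES to a smaller degree, with a median of -1.48. Of 24 members, 19 lay below and 3 above MEF (background 39.8% and 23.3%). Cd63, a tetraspanin of late endosomes, was at 80.3, 90.0 and 241 CPM in ES and 1170 CPM in MEF. Lamp2, a major protein of the lysosomal membrane, was at 47.3, 134 and 79.6 CPM against 697. The membrane proteins had a median of -2.47 and the hydrolases and activators -1.11. Glb1, the beta-galactosidase, was on the ES side, at 102, 34.8 and 57.1 CPM against 13.6. In the MHC list B2m, the light chain of class I molecules, was at 47.4, 75.5 and 267 CPM against 1800, while Ifitm1, a membrane protein known from primordial germ cells and induced by interferon elsewhere, was at 739, 409 and 445 CPM and had 2 reads in MEF. That list as a whole had 2 members above and 4 below of 12, beside 23.3% and 39.8% of all tested genes. Of 25 p53 and growth arrest genes, 7 lay above and 12 below MEF in every ES plate, beside 23.3% and 39.8% of all tested genes. Trp53 itself was at 287, 165.5 and 274 CPM in ES and 25.8 CPM in MEF, 9.40-fold higher. Its target Cdkn1a, the inhibitor p21, was at 21.0, 49.3 and 240.5 CPM against 978, and Cdkn1c, the inhibitor p57, at 23.02, 0 and 61.3 CPM against 495. The 8 cyclin kinase inhibitors as a group had 3 above and 3 below MEF in every ES plate, with a median of 0.48.

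The antioxidant, transport and cholesterol lists had medians between -0.20 and 0.17 but contained genes far apart. The metallothionein Mt2 was at 1337, 885 and 1186 CPM in ES and 97.0 CPM in MEF (11.7-fold), and Sod1, the cytosolic superoxide dismutase, at 758, 566 and 1049 CPM against 186. Gsto1, a glutathione transferase, was at 8.97, 23.2 and 109 CPM against 692, and Prdx6, a peroxidase, at 53.4, 49.4 and 47.5 CPM against 393.5. The cationic amino acid transporter Slc7a3 was at 298, 398 and 133.5 CPM against 19.7, while the system A carrier Slc38a4 was at 6.46, 34.8 and 40.2 CPM against 259. Of 20 cholesterol genes 3 lay above and 7 below MEF in every ES plate, beside 23.3% and 39.8% of all tested genes.

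Ratios between related genes within a plate do not depend on the scaling between plates. Of 28 pairs of relatives, the ratio of the first to the second gene was higher than in MEF in every ES plate for 18 (64.3%) and lower for 4 (14.3%). These shares are of pairs picked with earlier results known, so they are a description. Ccne1 to Ccne2, the E cyclins that start S phase, had log2 read ratios of 9.04, 3.17 and 2.09 in ES and -3.77 in MEF. Ccne1 had 0 reads in MEF and Ccne2 had 0 reads in ES replicates 1 and 2. The ratios of those plates are set at the floor, while in ES replicate 3 both genes had reads. Ccne2 had 1328 reads in Neuro2A, 54 in ES replicate 3 and 41 in MEF. The MEF count lies under the share expected from Neuro2A, a median of 9.45%. In ES replicate 3 the median Neuro2A share was 1.82%. The part of shared reads in these ratios was not tested. Mycn to Myc, the growth-promoting factors, had 0.79, 1.43 and -1.70 against -6.63. MEF lay below every ES plate for both pairs. Phc1 to Phc2, alternative PRC1 subunits, had 2.03, 2.55 and 1.86 against -5.43, a difference of 7.58 with an ES spread of 0.36 (SD, n = 3). Tet1 to Tet2 (Cxxc6/E130014J05Rik) had 0.06, 0.45 and 1.97 against -4.19. Igf2bp1 to Igf2bp2, RNA-binding proteins of growing tissue, had 1.14, -0.34 and 0.02 against -3.19. The log2 ratio of the glucose transporters Slc2a3 to Slc2a1 was 0.61, 1.70 and 0.72 against -2.14, and that of the metallothioneins Mt2 to Mt1 was 0.80, 0.32 and -0.21 against -2.50. The lamins Lmnb1 to Lmna stood at -0.19, -1.18 and -2.29 against -6.37, and the cadherins Cdh1 to Cdh2 at 8.76, 4.03 and 5.07 against -4.06, with Cdh2 at 0 and 1 reads in ES replicates 1 and 2 and Cdh1 at 0 reads in MEF, set at the floor. Of the pairs given so far, ES replicate 3 was the ES plate nearest to MEF for Ccne1/Ccne2, Mycn/Myc, Phc1/Phc2, Mt2/Mt1 and Lmnb1/Lmna. The pairs lower in every ES plate were Ccnd2 to Ccnd1, Prdx2 to Prdx1, Eif4a1 to Eif4a2 and Actg1 to Actb. Ccnd2, a D cyclin, was at 0.32, 11.6 and 198 CPM in ES and 2657 CPM in MEF. Pairs whose ES plates were on both sides of MEF included Ezh2 to Ezh1, at 8.03, 1.36 and 2.34 against 6.17, where Ezh1 had 0 reads in MEF and was set at the floor.

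**Figure D3:**
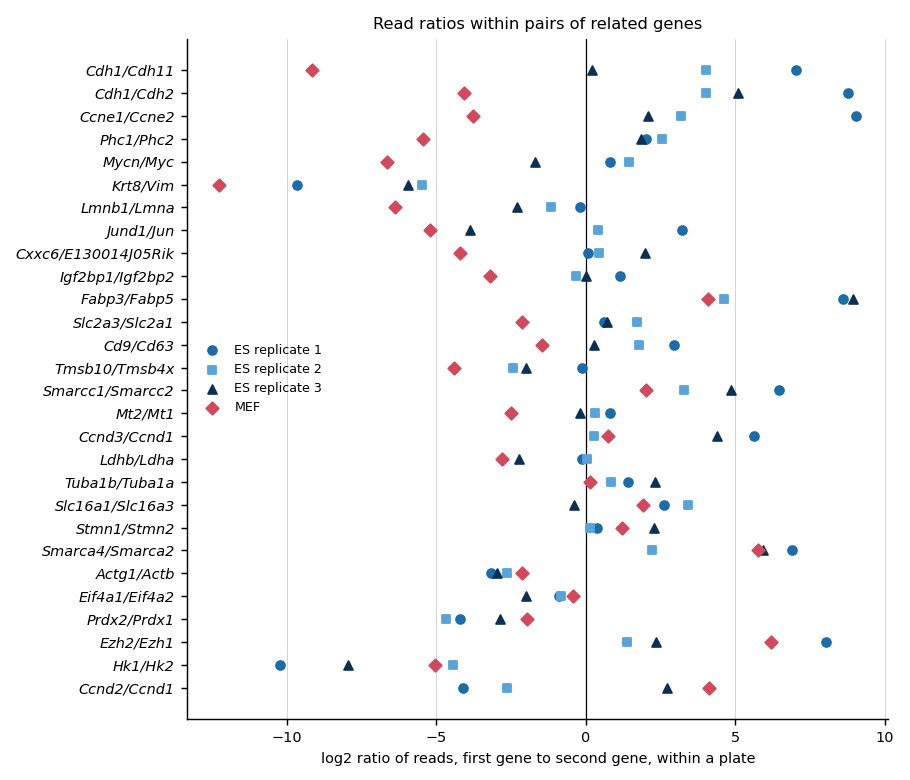
Log2 ratio of the reads of the first to the second gene within each plate (horizontal axis) for 28 pairs of related genes (vertical axis), with 1 symbol per plate and reads under 3 set to 3. The MEF symbol lies left of every ES symbol for 18 pairs, as for Phc1/Phc2 at -5.43, and right of every ES symbol for 4.

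Outside the lists, genes higher in ES were ranked by the lowest ES plate over MEF. Among them, Trh, the thyrotropin-releasing hormone precursor, was at 391.5, 302 and 766 CPM in ES and had 0 reads in MEF and Neuro2A. Upp1, uridine phosphorylase, was at 294, 313.5 and 462 CPM, with 0 reads in both. Esco2, an acetyltransferase that establishes cohesion between sister chromatids, was at 292, 279 and 467 CPM, with 1 read in MEF. Each of the 3 ES plates thus lay far above MEF for these genes. Pdk1, which restrains pyruvate entry into mitochondria, was at 186, 218 and 148 CPM with 3 reads in MEF, Cth, which makes cysteine from cystathionine, at 144, 226 and 132 CPM with 1 read, and Spink3, a protease inhibitor, at 319, 168 and 183 CPM with 0 reads. Cenpm and Cdca3, proteins of the centromere and of mitotic entry, had 2 reads each in MEF. The remaining 4 of the 12 were 8430410A17Rik, E130012A19Rik, Lrrc34 and 2410004A20Rik, all with 0 reads in MEF. The lowest ES plate of the 12 genes was between 70.9 and 199 times MEF at the floor of 3 reads. They were picked by these ratios out of 453 candidates, so they are described and not tested.

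Genes lower in ES were ranked by MEF over the higher of ES replicates 1 and 2, leaving out ES replicate 3. Among them, Prss23, a secreted protease, and Mgp, which inhibits calcification, had 0 reads in ES replicates 1 and 2 and were at 1897 and 1465 CPM in MEF. Emp1, a membrane protein of the PMP22 family, was at 0 and 11.6 CPM in ES replicates 1 and 2 and 2265 CPM in MEF. ES replicate 3 had 188, 117 and 213 CPM for these 3 genes. Bdnf, the neurotrophin, was at 0.32, 11.6 and 43.9 CPM in ES and 1073 CPM in MEF. Id3, an inhibitor of helix-loop-helix factors, was at 1.37, 5.81 and 139 CPM against 1208, and the growth factor Ptn at 2.50, 0 and 79.6 CPM against 814. Camk2d, Cthrc1, Cpe and Efna5 had 1055, 1014, 1363 and 800 CPM in MEF, and Neuro2A held 586, 295, 258 and 749 CPM of them. Hs6st2 and 2310016C16Rik had 0 reads in ES replicates 1 and 2 and in Neuro2A. These 12 genes were picked by their ratios out of 1801 candidates, so they too are described and not tested.

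Single wells were described by the share of their gene reads on a list, which has no scaling between plates. The median ES well had 0.214%, 0.291% and 0.268% of its gene reads on replication origin licensing genes in replicates 1, 2 and 3, and the median MEF well 0.0132%. For mitosis the medians were 0.223%, 0.351% and 0.343% against 0.0207%. The upper quartile of MEF wells, 0.0494% for licensing, lay below the lower quartile of every ES plate, which was lowest in ES replicate 1 at 0.0557%. For actin and contraction the medians were 0.708%, 0.366% and 0.739% against 2.91%, and for the endoplasmic reticulum 0.641%, 0.615% and 0.728% against 1.41%. TGF-beta, CCN and IGF binding genes took 0.0128%, 0.0341% and 0.156% against 1.08%. Lists near the middle of the plate comparison stood farther apart by this share. Nucleolus and ribosome assembly took 0.897%, 0.715% and 0.827% against 0.294%, and translation factors 2.04%, 1.47% and 1.56% against 0.865%. The proteasome took 0.593%, 0.58% and 0.689% against 0.461%, the opposite side from its plate median of -0.31. Wells of a plate are not replicates of a condition, and these values describe how the wells spread. With wells thinned to 1000 reads, Tpm1 had a read in 1.08% and 3.03% of wells in ES replicates 1 and 2, 34.0% in ES replicate 3 and 90.2% in MEF. Dnmt3l had a read in 21.5%, 43.9% and 48.9% of ES wells and in 0 of 92 MEF wells, where it had 0 reads before thinning.

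**Figure D4:**
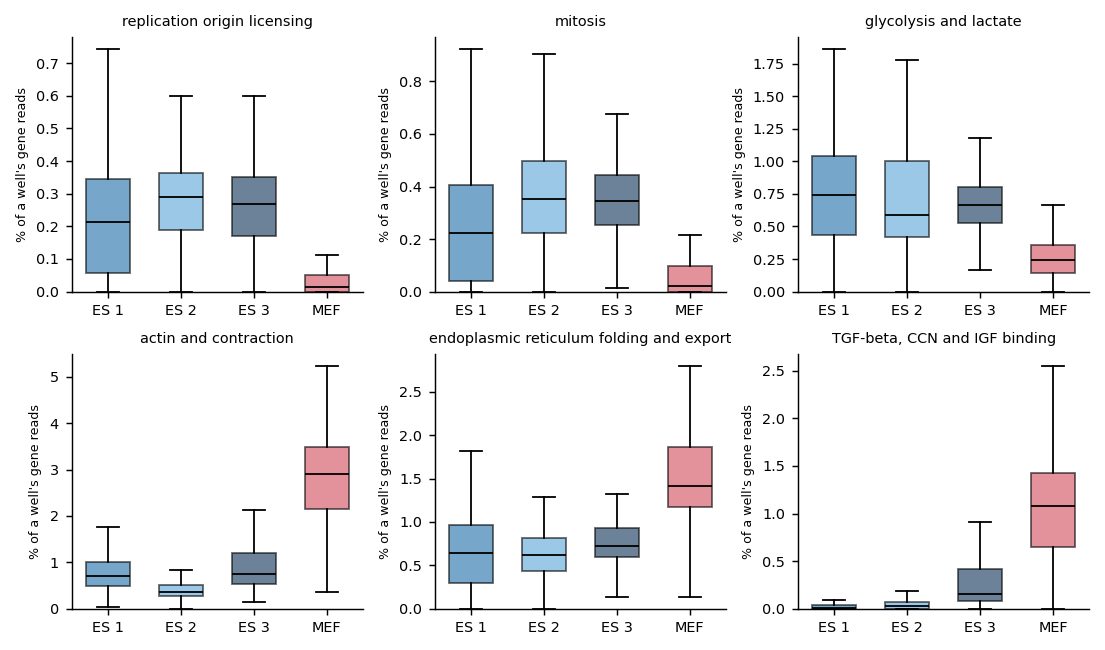
Percent of each kept well's gene reads on 6 gene lists (vertical axes, starting at 0) in ES replicates 1, 2 and 3 and MEF, with boxes from the lower to the upper quartile, a line at the median and whiskers to the farthest well within the usual distance of the box. The medians of the ES plates lie above the MEF median for replication origin licensing, mitosis and glycolysis and below it for the other lists, as for actin with medians of 0.708%, 0.366% and 0.739% against 2.91%.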

How the data were processed

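Single-cell 5′-tagged cDNA of 96 wells per plate was measured on 3 ES R1, 1 Neuro2A and 1 MEF plate. The deposited files hold raw read counts per gene and barcode, as the series' deposited readme states. The submitters' processing notes list Bowtie. No source used here gives its version, the build or the annotation. No molecular identifiers are named, so intervals cover counting error only. Whether the ES plates hold separate cultures is not stated in the labels, so a p-value here reflects the scatter of these plates, which may be technical.

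Gene rows (repeats and mitochondrial genes left out) were summed over wells with at least 1000 gene reads. Sums of all 5 plates entered edgeR 4.0.16 (filterByExpr, TMM, quasi-likelihood, Benjamini-Hochberg at 0.05, 2 residual degrees of freedom, common dispersion 1.50), with DESeq2 1.42.0, limma 3.58.1 and the alternatives of the closing section beside it. The script was tested on simulated data. Ratios of a value of 0 use 3 reads per plate. R was 4.3.3; python 3.11.15 ran with pandas 2.3.3, numpy 2.4.6, matplotlib 3.10.9 and scipy 1.17.1.

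The gene lists, pairs, markers and this comparison were chosen with earlier results of these data known. Up to 5 members per list with the highest CPM among those on 1 side and at least 4-fold apart, and up to 2 on the other side, were named, with 12 genes each way outside the lists at 100 CPM or more. Other members, among them those under 4-fold on the other side, were named after their values were seen. Files name genes by symbol, and predicted models were kept. Some genes that the rule names are not reported here.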

Additional observations from a re-analysis of the deposited data

How the results depend on the processing

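No paired analysis was possible because the labels give the plates no shared replicate numbers; the numbers used here follow the order of the samples. edgeR called 0 genes as reported. It called 9 without a filter on low counts, all higher in ES, DESeq2 called 481 and limma-voom 492. Leaving out 1 ES plate at a time gave 0 to 645 calls, the 645 without ES replicate 1, with 1 residual degree of freedom. The other alternatives (size factors, library size alone, ES and MEF plates alone, well filters, subtraction of shared reads, without predicted models) gave 0 calls. Genes with every ES plate above MEF numbered 2854 as reported and 3635 to 4351 with 1 ES plate left out, the 4351 without ES replicate 2, and 2708 when the deepest well of ES replicate 2 was dropped. Their share of the genes on 1 side was 36.9% as reported and 33.9% to 52.7% over the alternatives, highest with library sizes alone; it was 49.3% with Neuro2A reads subtracted from MEF. Of 31 list medians, 16 lay above the median of all tested genes, and 15 to 17 did under the alternatives. The DNA methylation median, less that of all genes, was 0.26 as reported and -0.35 with every well given equal weight. With equal wells the log2 ratio of Shmt1 was -0.32. The cause was not tested. No other list median with the 3 ES plates on 1 side of the all-gene median, and no other named gene or pair, turned under the alternatives run. With 1 MEF plate no result has a replicate of MEF, and in ES replicate 2 values under 8.71 CPM rest on fewer than 3 reads.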

Other observations

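Repeat families, which the gene tests leave out, also differed between the ES and MEF plates. As a share of the reads on repeats in kept wells, 10 of 180 families at 0.1% or more in any plate had every ES plate above MEF and 60 had every ES plate below. They were examined after the values were seen and no test was run. The early transposon LTR RLTRETN_Mm, of an endogenous retrovirus-like element, took 0.425%, 0.168% and 0.134% of repeat reads in ES replicates 1, 2 and 3 and 0.0211% in MEF. Its internal part RLTRETN_Mm-int took 0.757%, 0.112% and 0.327% against 0.0515%, and the related ETnERV 0.313%, 0.0557% and 0.205% against 0.0275%. Reads annotated to both ETnERV2 and RLTRETN_Mm-int were on the other side, at 0.000456%, 0.00224% and 0.01% in ES and 0.17% in MEF, so ETn annotations did not share 1 direction. The LTR RLTR9E took 0.205%, 0.0411% and 0.0477% against 0.00974%. IAPEY_LTR was lower in ES, at 0.000369%, 0.00836% and 0.00816% in ES and 0.0995% in MEF. Neuro2A held 1340 reads of it, beside 1011 in MEF. For IAPLTR1_Mm-int, also lower in every ES plate, Neuro2A held 34630 reads and MEF 3017. The median Neuro2A share in MEF was 9.45% for genes. The part of Neuro2A reads in the families lower in ES was not tested. Repeats took 82.4% of all reads in ES replicate 2 and 23.02% in MEF, and the part of that difference in these shares was not tested.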
